A study of Homo sapiens with 20 samples.

Results

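The 5 untreated control samples of hTCEpi, a human corneal epithelial cell line immortalized with telomerase, were described for the genes they express, the lineage genes they lack and the spread from library to library. They were taken by their sample titles and make up 5 of the 20 samples of a study in which the other 15 received recombinant SPARC, a secreted matricellular glycoprotein. The control cells were kept in a keratinocyte growth medium with its supplement, antibiotics and 0.15 mM calcium chloride, and received 0 µg/ml SPARC for the 24 h of the experiment. RNA was depleted of ribosomal RNA and sequenced from random-primed cDNA. The SPARC samples enter no value below. All 5 samples are of 1 line that carries an added telomerase gene, and no label tells whether separate cultures gave the replicates, so the spread between them may be technical.

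The corneal epithelium is a stratified, non-keratinizing epithelium at the front of the eye. Its stem cells sit in the basal layer of the limbus, the rim between cornea and conjunctiva. Basal cells carry keratins 5 and 14 and the transcription factor p63 and are anchored to the basement membrane by hemidesmosomes, whereas cells that differentiate in the cornea are known for keratins 3 and 12, and PAX6 is the regulator of eye development that keeps corneal identity.

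Counts per library summed to between 32741250 and 40168918 once each gene identifier was kept 1 time. A level is a gene's share of the counts of a library in counts-per-million (CPM), after the library total was corrected by a factor of edgeR's TMM method, here 0.997 to 1.008. Means are over the 5 libraries and errors are SDs (n = 5). CPM grows with the length of a transcript, so levels of different genes are compared by a per-length level unless an order is said to be by CPM; it is CPM per kilobase of exon, rescaled so that each library has the same total. A gene counts as expressed when its mean is 1 CPM or more. In a library, 3 counts corresponded to 0.0748 to 0.0917 CPM, which is the level that a count of 0 still allows, and these limits cover counting error only. All positions are on GRCh38.

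The 5 genes that mark the line were all expressed. KRT5 (ENSG00000186081, chromosome 12, 52514575 to 52520687), the type II keratin of basal cells, had 11352, 11779.9, 11803, 11433 and 10961 CPM in replicates 1 to 5. KRT14 (ENSG00000186847, chromosome 17, 41582279 to 41586921), its type I partner, had 379, 338, 317, 321 and 324 CPM. For TP63 (ENSG00000073282, chromosome 3, 189631416 to 189897279), which encodes p63, the values were 268, 269, 271, 269 and 272 CPM. The values of KRT5 and TP63 lay close together, KRT14 was highest in replicate 1, and no library lacked any of these 3 genes. PAX6 (ENSG00000007372, chromosome 11, 31784779 to 31818062) was low, with 6.42, 8.39, 8.22, 8.67 and 7.10 CPM. TERT (ENSG00000164362, chromosome 5, 1253147 to 1295069), the catalytic subunit of telomerase, had 55.9, 57.9, 61.9, 61.4 and 63.2 CPM, and its count cannot tell the endogenous gene from the copy that immortalized the line. Per length, KRT5 stood at 8659 ± 259, KRT14 at 477 ± 43.0, TP63 at 117 ± 1.55, TERT at 42.3 ± 1.85 and PAX6 at 1.21 ± 0.143, an order in which no neighbours overlap.

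Of 60671 gene identifiers, 15391 (25.4%) were expressed, and of 19966 protein-coding genes 12074 (60.5%) were. This share and the median level of all protein-coding genes, 6.28 CPM, are the background for the gene lists below. A further 2527 protein-coding genes had no count in any library. A mean of 1000 CPM was reached by 71 genes, and the 100 genes of highest CPM took 20.0 ± 0.157% of all counts. The mitochondrial genome took 3.52% to 3.70% of counts, the cytosolic ribosomal protein genes 3.91 ± 0.0613% and the keratin genes 1.68 ± 0.0310%.

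KRT5 also had the highest per-length level of all protein-coding genes of the nuclear genome. The next was MT2A, a metallothionein that binds zinc and other metals, at 6133 ± 423, then the cytoplasmic actin ACTB at 4770.2 ± 145 and the actin-binding peptide TMSB10 at 4310.2 ± 124. This order depends on the length used: with the mean transcript length in place of the exon length, ACTB stood at 7237, MT2A at 4963 and TMSB10 at 1812, and KRT5 stayed above all 3 at 15890. The 20 highest also held the ribosomal proteins RPS2 and RPL8, the elongation factor EEF2, the second cytoplasmic actin ACTG1, the glycolytic enzyme GAPDH, the glutathione transferase GSTP1, the amino acid transporter subunit SLC7A5, the RNA-binding protein YBX1, the calcium-binding protein S100A2 and the keratin KRT6A. The remaining 6 were histone genes, with per-length levels from 2052 ± 58.0 for H2BC17 to 3258 ± 151 for H1-5. Replication-dependent histone mRNAs carry no poly(A) tail, and a library made by depletion of ribosomal RNA keeps them.

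Among genes that encode no protein, the nuclear RNA MALAT1 had 7315 ± 168 CPM and the signal recognition particle RNA RN7SL1 had 6473 ± 596 CPM. RN7SL1 has near-identical copies, and RN7SL4P and RN7SL3, which were also among the 10 noncoding genes of highest CPM, can share its reads. MIR205HG, the host transcript of the epithelial microRNA miR-205, had 669, 683, 721, 655 and 653 CPM, a narrow range. The microRNA itself is too short for these libraries and was not measured. Its mature sequence from RefSeq is shown because the host was among these 10 genes, with the seed (bases 2 to 8), which pairs with target RNAs, in capitals; it lies on chromosome 1, 209432166 to 209432187, plus strand.
hsa-miR-205-5p: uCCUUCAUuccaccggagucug

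Keratins form the intermediate filaments of epithelia in pairs of a type I and a type II chain, and the chains present tell epithelia apart. Of 55 keratin genes, 17 reached a mean of 1 CPM, and their median was 0.346 CPM. Of the keratins of stress and wounding, KRT6A had 2323, 2042, 1963, 2093 and 2289 CPM and KRT17 had 1687, 1698, 1700.1, 1736 and 1625 CPM, while KRT16, usually grouped with them, had 6.90, 5.37, 5.83, 4.91 and 4.65 CPM. KRT6C and KRT6B, near-identical copies of KRT6A that can share its reads, stood at 52.1 ± 2.29 CPM and 20.7 ± 0.895 CPM. Partner chains differed in level: per length, KRT14 stood at 477 ± 43.0 where KRT5 stood at 8659 ± 259, and KRT16 stood at 7.25 ± 1.25 where KRT6A stood at 2373 ± 199.9 and KRT17 at 1749.7 ± 58.2. The keratins of simple epithelia were uneven. KRT7, found in conjunctiva and glandular epithelia, had 565, 654, 659, 649.5 and 625 CPM and KRT18 had 309 ± 12.4 CPM, while KRT8, the usual partner of KRT18, had 11.8 ± 0.397 CPM and KRT19 had 0.816 ± 0.113 CPM. Per length KRT8 was at 5.55 ± 0.180 and KRT18 at 311 ± 9.20. The per-length order was KRT5, KRT6A, KRT17, KRT7, KRT14, KRT18 and KRT15; KRT7 (499 ± 25.5) and KRT14 did not differ beyond their spread. With the mean transcript length in place of the exon length the order was the same, but KRT7 stood at 1427 and KRT14 at 401.

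Of the keratins of corneal differentiation, KRT3 was just above the threshold and KRT12 near the limit of detection. KRT3 (ENSG00000186442, chromosome 12, 52789685 to 52796117) had 52, 49, 57, 52 and 47 counts in replicates 1 to 5, or 1.47 ± 0.0507 CPM, and all 5 libraries were above the limit of a count of 0. KRT12 (ENSG00000187242, chromosome 17, 40860943 to 40867224) had 4, 0, 1, 0 and 0 counts. No count was found in 3 of the libraries, and replicate 1 alone was above 3 counts. In bulk RNA, a low level in all cells and expression in few cells cannot be told apart. KRT24, a keratin also found in corneal epithelium, had no count in any library. The keratins of other stratified epithelia were low too: the mucosal KRT4 and KRT13 had 0.863 ± 0.227 CPM and 0.714 ± 0.184 CPM, and the epidermal partners KRT1 and KRT10 had 0.207 ± 0.0355 CPM and 14.7 ± 0.581 CPM.

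**Figure D1:**
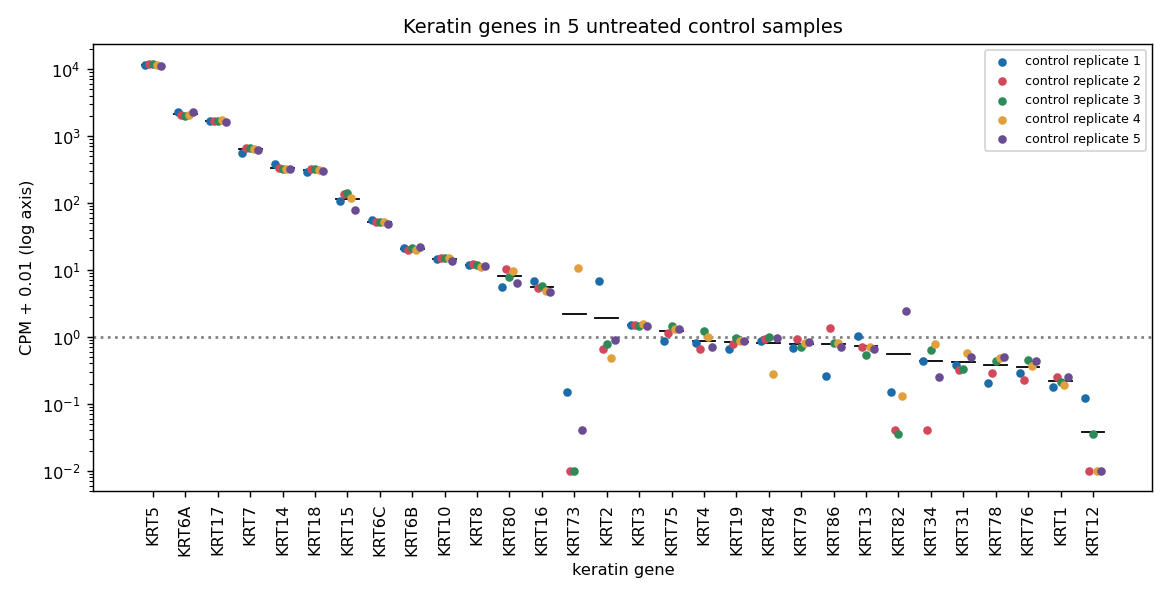
CPM plus 0.01 of keratin genes (log axis) in the 5 control libraries, with points for libraries, a bar for the mean and a dotted line at 1 CPM; genes are ordered by mean CPM. KRT5 is highest, KRT3 lies close to 1 CPM in every library and KRT12 near the bottom, and KRT73, KRT2 and KRT82 each have 1 library far above the other 4.

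The start regions of KRT5, KRT3 and KRT12 are printed because these 3 keratins span the range from the highest per-length level to the limit of detection. Each line gives the 120 bases before the RefSeq start site (GRCh38.p14), 5′ to 3′ on the gene's minus strand, at chr12:52520395-52520514, chr12:52796118-52796237 and chr17:40867224-40867343. The KRT5 window lies wholly within the gene span given above, which is from GENCODE, so RefSeq and GENCODE place the start of KRT5 differently. Capitals mark the motif TATAAA, which was searched on both strands.
KRT5: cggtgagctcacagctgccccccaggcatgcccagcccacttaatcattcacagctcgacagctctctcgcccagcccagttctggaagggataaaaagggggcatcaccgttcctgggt
KRT3: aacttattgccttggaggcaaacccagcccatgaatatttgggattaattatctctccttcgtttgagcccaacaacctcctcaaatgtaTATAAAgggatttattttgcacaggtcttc
KRT12: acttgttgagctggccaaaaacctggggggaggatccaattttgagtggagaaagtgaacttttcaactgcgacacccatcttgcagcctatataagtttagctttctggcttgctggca
These letters were present in KRT3, starting 30 bases before the start site, and on neither strand in the windows of KRT5 and KRT12. Of 35116 promoters in the same table, 3.87% held them on the gene's strand, 2.23% on the other strand and 0.470% on both. A match or its absence describes these exact letters and not a used site, and variants of the motif were not searched.

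The machinery that fixes basal cells to the basement membrane was expressed throughout. All 10 of 10 hemidesmosome and anchoring genes reached 1 CPM, and their median was 939 CPM. PLEC, the linker plectin, had 5338 ± 178 CPM, COL17A1, the transmembrane collagen XVII, had 1345, 1232, 1258, 1264 and 1365 CPM, and ITGB4, its integrin partner, had 1229, 1218, 1261, 1224 and 1247 CPM. LAMB3 and LAMA3 encode chains of laminin-332, the ligand under the hemidesmosome. LAMB3 had 866, 745, 777, 817 and 959.6 CPM and LAMA3 had 647 ± 38.9 CPM. Replicates 1 and 5 were the 2 highest libraries for LAMB3. Per length, LAMB3 stood at 576 ± 60.7 and LAMA3 at 143 ± 10.1, and with the mean transcript length at 408 and 247. COL7A1, which forms the anchoring fibrils below, had 439 ± 20.1 CPM.

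Receptors for laminin and the collagens of basement membranes were expressed as well. Of 26 integrin subunits, 14 (53.8%) were expressed, against 60.5% of all protein-coding genes. Among them were ITGA3 (1292 to 1368 CPM in the 5 libraries), ITGB1 (888 ± 24.5 CPM) and ITGA6 (836 ± 70.4 CPM), which with ITGB4 are receptors for laminin. Among integrins of blood cells, ITGB2 and ITGAM had 51 and 24 summed counts, while ITGAE, a subunit of lymphocytes that bind epithelia, had 13.2 ± 0.874 CPM. Of 44 collagen chains 18 were expressed. These included the basement membrane chains COL4A2 (322 ± 16.9 CPM), COL4A1 (165 ± 9.09 CPM), COL4A6 (130.2 ± 5.62 CPM) and COL4A5 (126 ± 3.90 CPM). The fibrillar chains were uneven: COL27A1 had 120.1 ± 3.95 CPM, COL1A1 5.11 ± 0.619 CPM, COL11A2 1.53 ± 0.252 CPM and COL5A2 1.48 ± 0.206 CPM, and COL1A2 and COL3A1 had 14 and 12 summed counts. THBS1, the matricellular thrombospondin, had 3879, 3136, 3194, 3319.9 and 3775 CPM, with replicates 1 and 5 above the other 3. SPARC itself, which the treated arm received as a protein, had 2, 1, 12, 10 and 10 counts, a mean of 0.198 CPM.

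Genes of cell-cell junctions were expressed in part. Of 22 desmosome and adherens junction genes, 18 were expressed, with a median of 154 CPM. The desmosomal linker DSP had 1134 ± 32.2 CPM, the cadherins DSG2 and DSG3 had 342 ± 6.76 CPM and 73.1 ± 4.57 CPM, and the adherens cadherins CDH3 and CDH1 had 152 ± 9.33 CPM and 98.5 ± 3.78 CPM. DSG1 and DSC1, the desmosomal cadherins of upper layers, had 11 and 9 summed counts and DSG4 had none. Of 24 claudins, which seal tight junctions, 7 were expressed, CLDN1 at 288 ± 19.0 CPM and CLDN4 at 1.30 ± 0.426 CPM. Of 21 connexins, which form gap junctions, 8 were expressed, among them GJA1 (68.0 ± 2.58 CPM).

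Transcription factors of the corneal and stratified epithelium were present in part. Of 42 such genes, 31 were expressed, with a median of 9.72 CPM. Those that work with p63 in stratified epithelia were expressed, with 128 ± 2.60 CPM for TFAP2A, 114 ± 6.45 CPM for KLF5 and 100.2 ± 1.81 CPM for GRHL2. PITX1, a homeobox factor known chiefly from hindlimb and pituitary, had 89.2, 92.5, 92.0, 87.6 and 95.4 CPM. Of factors known from eye development, MEIS1 had 30.6 ± 1.06 CPM and FOXC1 had 20.3 ± 1.58 CPM, while SIX3, SIX6 and OTX2 had 5, 1 and 1 summed counts. SOX2 had 25.5, 24.9, 26.9, 24.3 and 17.6 CPM, lowest in replicate 5. Factors tied to epithelial differentiation were uneven, with 21.9 ± 1.83 CPM for KLF4 and 11.7 ± 0.903 CPM for OVOL2, but 1.44 ± 0.392 CPM for EHF, 1.78 ± 0.425 CPM for ZNF750, 0.372 ± 0.141 CPM for ELF3 and 0.636 ± 0.283 CPM for OVOL1.

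Markers reported for limbal stem and progenitor cells did not appear as a block. Of 28 such genes, 16 (57.1%) were expressed, against 60.5% of all protein-coding genes, with a median of 9.31 CPM. Those shared with basal keratinocytes in general were present: S100A2 had 1230.5, 1162, 1127, 1156 and 1288 CPM, CEBPD, a factor tied to quiescence, had 138 ± 10.8 CPM, and KRT15 had 107, 134, 141, 117 and 78.8 CPM. WNT7A, a ligand that acts upstream of PAX6 in limbal cells, had 31.2, 30.8, 29.4, 30.5 and 28.4 CPM. Others had few counts or none. ABCB5, a transporter that marks limbal stem cells, had no count in any library, and neither did CD200 or CXCR4. GPHA2 and TSPAN7 had 17 and 23 summed counts over the 5 libraries. ABCG2, the efflux pump of side population cells, was just above the threshold at 1.13 ± 0.273 CPM.

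A smaller share of the corneal differentiation genes was expressed. Of 21 such genes, a list that also holds keratins such as KRT24, 8 (38.1%) were expressed, with a median of 0.118 CPM. The share of all protein-coding genes was 60.5%. TKT, the transketolase abundant in cornea, had 737 ± 36.0 CPM, and TGFBI, a matrix protein mutated in corneal dystrophies, had 470.4 ± 7.92 CPM. ALDH3A1, the corneal crystallin, had 6.70, 6.04, 7.03, 7.51 and 7.62 CPM, a low level without a library at 0. The related ALDH1A1 had 0.383 ± 0.131 CPM. AQP5, the water channel of the corneal epithelium, had 2 summed counts, and AQP3 had 0.890 ± 0.218 CPM. Among the 19 aldehyde dehydrogenase genes 15 were expressed, ALDH1A3 at 62.2 ± 3.63 CPM and the mitochondrial ALDH1B1 at 132 ± 4.35 CPM.

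Few genes of terminal differentiation were expressed. Of 29 cornified envelope genes, 7 were expressed, with a median of 0.0859 CPM. The envelope scaffold proteins EVPL and PPL, which also join desmosomes to keratins, had 230.4 ± 12.4 CPM and 168 ± 12.8 CPM. The crosslinking enzyme TGM1 had 2.12 ± 0.535 CPM, whereas IVL (involucrin) had 0, 4, 6, 6 and 0 counts and LORICRIN none. No member of the 11 small proline-rich genes, the 18 late cornified envelope genes or the 16 kallikreins reached 1 CPM, and 17 of the 18 late cornified envelope genes had no count in any library. The barrier mucins of the wet ocular surface were likewise low: MUC1 had 1.55 ± 0.518 CPM, MUC4 and MUC16 had 20 and 14 summed counts, and MUC1 was the 1 gene of 17 mucins that was expressed, with MUC6 just under the threshold at 0.960 ± 0.420 CPM and above it without replicate 2 or 5. LGALS3, the galectin that crosslinks those mucins, had 92.2, 97.2, 93.6, 94.8 and 98.8 CPM.

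**Figure D2:**
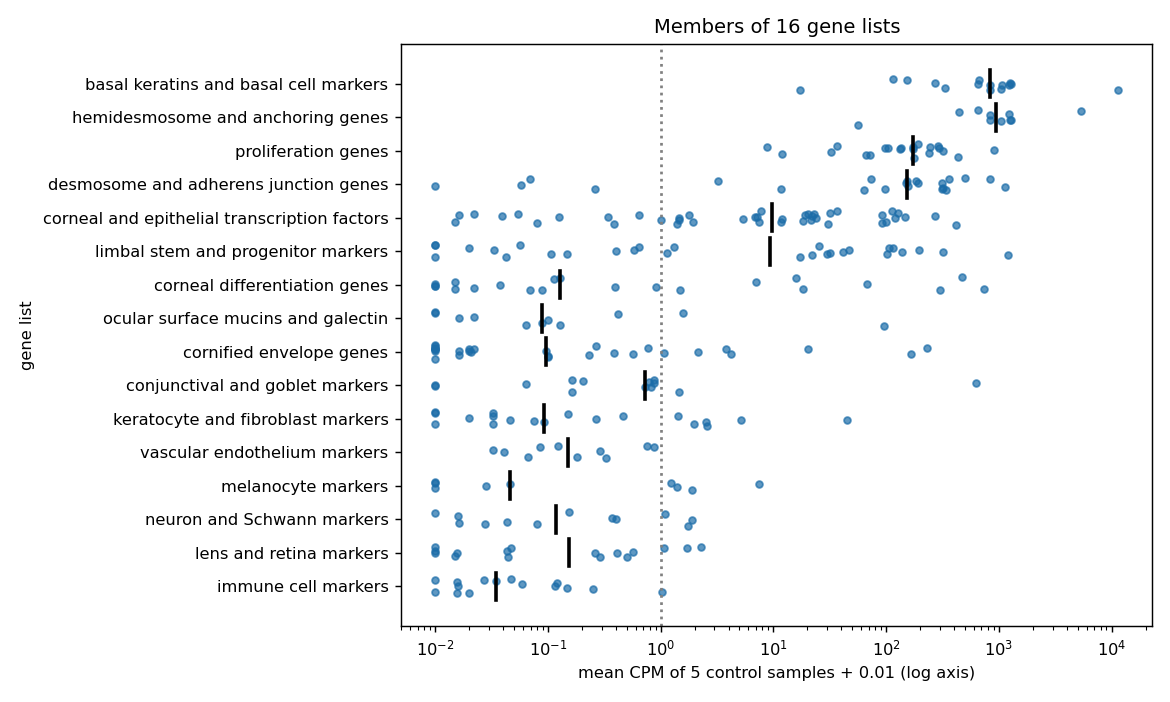
Mean CPM of the 5 control libraries plus 0.01 (log axis) for each member of 16 gene lists; a point is a gene, a black bar the median of the list and the dotted line 1 CPM. Basal, hemidesmosome and proliferation genes lie above 1 CPM without exception, and the medians of the corneal differentiation, cornified, mucin and non-epithelial lists lie below it.

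HOX genes, which give cells their position along the body and limb axes, were expressed mostly from 3 of the 4 clusters. The corneal epithelium arises from surface ectoderm of the head, anterior to where HOX genes are known to act. Of 39 HOX genes, 19 reached 1 CPM, and their median was 0.983 CPM. HOXC8 had 12.3, 12.2, 10.4, 13.8 and 14.0 CPM, HOXD8 had 11.2, 13.6, 12.3, 11.9 and 11.1 CPM and HOXD10 had 10.7, 12.2, 13.0, 10.8 and 9.79 CPM. Every library held counts of these 3 genes. Others with steady levels were HOXC4 (9.98 ± 0.768 CPM), HOXC9 (9.33 ± 1.02 CPM), HOXD11 (9.06 ± 1.17 CPM), HOXA10 (8.47 ± 0.415 CPM) and HOXC13 (8.06 ± 0.735 CPM). In the HOXB cluster, HOXB7 had 4.81 ± 0.610 CPM, and no other HOXB gene reached 1 CPM; HOXB1 had no count. Genes at the far end of 3 clusters were at the limit of detection, with 4 summed counts for HOXA13, 2 for HOXB13 and 4 for HOXD13.

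**Figure D3:**
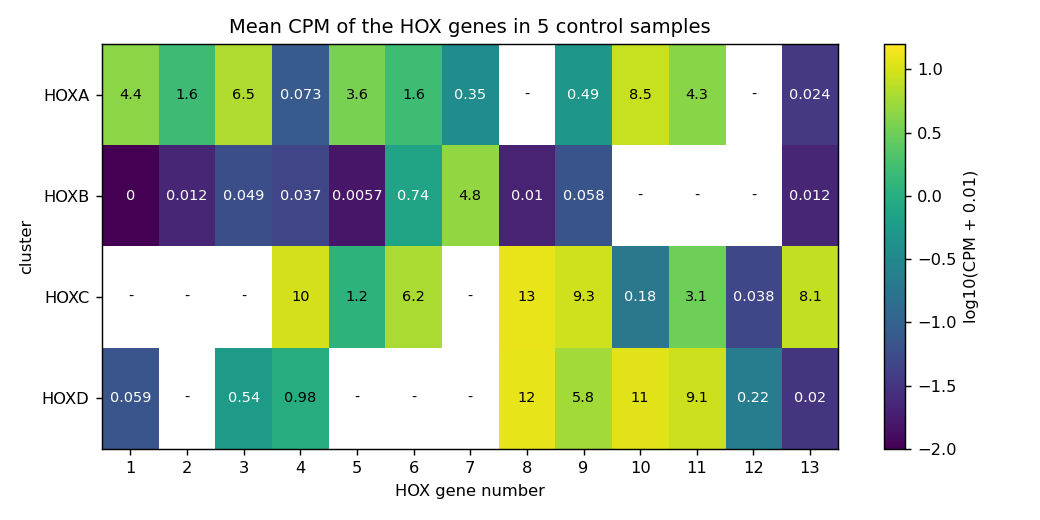
Mean CPM of the 39 HOX genes in the 5 control libraries, by cluster (rows) and gene number (columns); the colour is log10 of CPM plus 0.01, the printed figure is the mean CPM and a dash marks a number with no gene. Genes above 1 CPM lie in HOXA, HOXC and HOXD, and HOXB7 is the exception in HOXB.

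The telomere machinery was expressed together with TERT. Of 13 telomerase and telomere genes, 12 reached 1 CPM, among them the telomerase RNA-binding protein DKC1 (161 ± 7.32 CPM) and the shelterin subunits ACD (93.7 ± 1.81 CPM) and TERF2 (47.5 ± 2.16 CPM). The exception was TERC, the telomerase RNA, with 8, 4, 8, 7 and 4 counts. In the GENCODE annotation, 81.0% of its exon length is shared with another annotated gene on the same strand, so its level is uncertain.

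All 21 of 21 proliferation genes were expressed, with a median of 173 CPM. MKI67, the marker of cycling cells, had 845, 929.9, 938, 918 and 861 CPM, and TOP2A, CCNB1 and PCNA had 316 ± 12.2 CPM, 191 ± 6.35 CPM and 173 ± 9.20 CPM. The G1 cyclins CCND2 and CCND1 had 868, 991, 984, 1014 and 979.5 CPM and 355 ± 4.18 CPM, with replicate 1 lowest for CCND2, and their kinases CDK6 and CDK4 had 243 ± 21.3 CPM and 122 ± 5.28 CPM. CDKN1A, the inhibitor p21, had 11.0 ± 0.940 CPM, and RB1, the retinoblastoma protein that holds cells in G1, had 102 ± 5.04 CPM.

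The inhibitors at the CDKN2A locus stood apart from this. CDKN2A (ENSG00000147889, chromosome 9, 21967753 to 21995301), which encodes p16 and ARF, barriers to the unlimited growth of epithelial cells, had 0, 2, 0, 0 and 0 counts, and its neighbour CDKN2B had 0, 1, 0, 0 and 0. Genes around them were then looked up, after these values were seen. MTAP (ENSG00000099810, chromosome 9, 21802543 to 21937651), an enzyme of methionine salvage that is expressed in most tissues, had no count in any library, while 7.83% of its exon length is shared with another gene on the same strand. The antisense gene CDKN2B-AS1 had 4 summed counts. Farther out, KLHL9, a ubiquitin ligase adaptor at lower coordinates, had 1379, 1364, 1621, 1433 and 1321 counts, and ELAVL2, an RNA-binding protein at higher coordinates, had 1458, 1245, 1372, 1271 and 1305. DMRTA1, the next gene after CDKN2B, had 57 summed counts. FOCAD had 53.7 ± 2.67 CPM and HACD4 25.4 ± 1.29 CPM, and the interferon genes between HACD4 and MTAP had between 0 and 6 summed counts each. The run of genes without counts in every library, or nearly so, was broken among the interferon genes by KLHL9, between IFNA5 and IFNA6. From IFNA6 on, it held interferon genes, MTAP, CDKN2A and CDKN2B. Gene copy number was not measured.

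**Figure D4:**
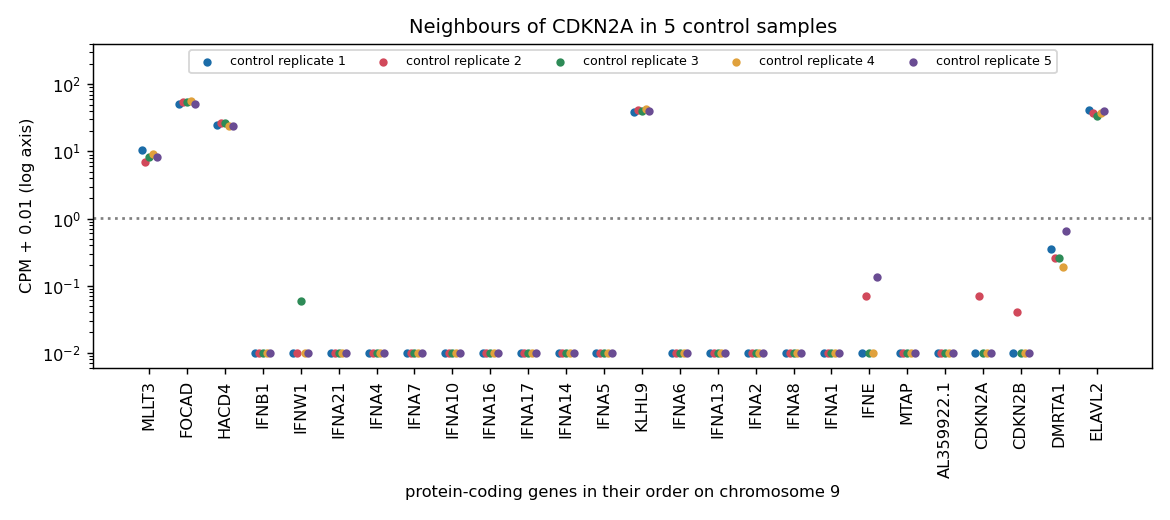
CPM plus 0.01 (log axis) of the protein-coding genes around CDKN2A in their order on chromosome 9 in the 5 control libraries, with a dotted line at 1 CPM. MLLT3, FOCAD, HACD4, KLHL9 and ELAVL2 lie above 1 CPM in every library, and MTAP, CDKN2A and CDKN2B lie at or near 0.

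Among EGF receptors and ligands, 10 of 13 genes (76.9%) were expressed, against 60.5% of all protein-coding genes. EGFR, the receptor for the main growth factor of keratinocyte media, had 1109, 1018, 1053, 1055 and 1069 CPM, and its ligands AREG, EREG and TGFA had 151 ± 16.2 CPM, 92.2 ± 12.5 CPM and 88.4 ± 7.30 CPM. EGF had 0.253 ± 0.162 CPM and HBEGF 5.21 ± 0.160 CPM. ERBB2 had 151 ± 5.47 CPM and ERBB4 32 summed counts. Of 24 other growth factor receptors, 17 (70.8%) were expressed. Among them were TGFBR2 (361 ± 3.16 CPM), EPHA2 (345 ± 4.72 CPM) and the hepatocyte growth factor receptor MET (312 ± 13.5 CPM). PDGFRA, the receptor typical of mesenchyme, had no count in any library.

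In the Notch pathway, 14 of 18 genes were expressed. The ligands JAG2 and JAG1 had 329 ± 16.9 CPM and 297 ± 10.6 CPM, and the receptors NOTCH1 and NOTCH2 had 197 ± 7.94 CPM and 188 ± 5.25 CPM, while NOTCH3 had 1.19 ± 0.338 CPM. The target HES1 had 22.9 ± 2.87 CPM and the targets HEY1 and HEY2 42 and 14 summed counts. In the Wnt pathway, 23 of 30 were expressed. The co-receptor LRP5 had 336 ± 9.72 CPM, the secreted inhibitors DKK3, SFRP1 and DKK1 had 255 ± 8.79 CPM, 155 ± 4.07 CPM and 127 ± 12.4 CPM, and AXIN2, a widely used target of the pathway, had 0.464 ± 0.225 CPM. Of 19 retinoid genes, 9 were expressed, with 240.3 ± 10.3 CPM for the receptor RXRA and 61.0 ± 4.40 CPM for RARG, while the cellular binding protein CRABP1 had no count.

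Innate sensors were expressed in part, and most cytokine genes were low. Of 20 innate sensors, 10 were expressed: TLR2 had 14.9, 11.6, 11.7, 13.4 and 12.8 CPM, TLR3, which detects double-stranded RNA, had 4.24 ± 0.588 CPM, and TLR4, the lipopolysaccharide receptor, had 5 summed counts. The cytokine genes with levels above 10 CPM were IL18 at 90.4 ± 2.07 CPM and IL1A at 67.2, 55.3, 47.7, 63.0 and 75.1 CPM, and 8 of 26 were expressed. IL6 and CCL2 had no count in any library, and CXCL8 had 1.98, 0.183, 0.498, 0.804 and 0.612 CPM, with replicate 1 highest. Among 18 antimicrobial and defence genes 4 were expressed: C3 at 31.7 ± 3.37 CPM, SAA1 at 31.6 ± 2.52 CPM, SLPI at 9.29 ± 1.11 CPM and S100A9 at 1.41 ± 0.228 CPM. All 8 genes of class I antigen presentation were expressed, with B2M, the light chain, at 176 ± 4.30 CPM. Of 8 class II genes 2 were, CIITA at 3.63 ± 0.630 CPM and CD74 at 2.06 ± 0.377 CPM, and HLA-DRA had no count in any library. HLA genes vary between people, and reads of an allele far from the reference may go uncounted.

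Of 14 sensory ion channels, 5 were expressed. The mechanically gated PIEZO1 had 403, 383, 402, 413 and 404 CPM and the heat- and capsaicin-gated TRPV1 had 3.49 ± 0.298 CPM, while the cold receptor TRPM8 and the irritant receptor TRPA1 had no count in any library. TRPV4, an osmotic sensor, had 0.583 ± 0.236 CPM.

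Glycolysis and oxidative defence were expressed without gaps in the lists used. All 19 glycolysis and glucose uptake genes reached 1 CPM, with 2164 ± 10.3 CPM for ENO1, 1859 ± 29.3 CPM for PKM and 203 ± 3.27 CPM for the glucose transporter SLC2A1. All 20 genes of oxidative defence did so too, with 1537 ± 47.6 CPM for GSTP1, 410.5 ± 16.0 CPM for the ferritin chain FTH1, 269 ± 12.6 CPM for the thioredoxin TXN and 1.37 ± 0.627 CPM for HMOX1. Of 11 metallothioneins, 7 were expressed. MT2A had 2393, 2419, 2275, 2468 and 2736 CPM and MT1E had 453 ± 27.3 CPM, and both belong to a family of close copies that can share reads. Of 19 S100 genes 11 were expressed, and S100A8 and S100A7, known from inflamed epithelium, had 10 and 0 summed counts.

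Lists of genes that mark other cell types differed in how many members were expressed. None of 10 vascular endothelial genes reached 1 CPM, and their summed level lay between 2.29 and 3.28 CPM in the 5 libraries. Of 15 immune genes, CD14 reached it at 1.02 ± 0.265 CPM, though not without replicate 1, 4 or 5, and the summed level was 1.32 to 2.42 CPM, with 3 summed counts for PTPRC (CD45). Of 9 melanocyte genes, MITF (7.44 ± 1.28 CPM), PMEL, MLANA and SOX10 did. PMEL, MLANA and SOX10 were not far above the threshold, with means of 1.87, 1.38 and 1.23 CPM. The pigment enzymes TYR and TYRP1 had no count in any library. The lacrimal list had none of 8, the goblet and conjunctival list 2 of 13 (KRT7 and AGR2, with MUC5AC at 9 summed counts), the lens and retina list 3 of 16 and the neural list 3 of 12. Of 13 corneal endothelial genes, 7 (53.8%) were expressed, against 60.5% of all protein-coding genes. Among them were TJP1, which most epithelia share, and SLC4A11 at 18.5 ± 1.13 CPM, while COL8A2 had 0.789 ± 0.363 CPM and CA3 15 summed counts. POU5F1 was the 1 gene of 7 pluripotency genes that was expressed, at 6.51 ± 0.754 CPM, and it has close pseudogene copies.

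The mesenchymal side was split. Of 19 keratocyte and fibroblast genes 6 were expressed, PDPN, which basal epithelial cells also carry, at 43.6 to 46.8 CPM and COL1A1 at 5.11 ± 0.619 CPM; KERA, LUM and PDGFRA had no count in any library. VIM (ENSG00000026025, chromosome 10, 17228259 to 17237593), the intermediate filament of mesenchyme, had 6, 2, 8, 5 and 4 counts, or 0.140 ± 0.0525 CPM. Its exons share no bases with another gene on the same strand and 24.4% on the other strand. Of 10 mesenchymal transition genes, 5 (50%) were expressed, against 60.5% of all protein-coding genes. The regulators SNAI2, TWIST2 and TWIST1 had 104 ± 9.12 CPM, 18.4 ± 1.62 CPM and 10.6 ± 1.67 CPM, and FN1 (fibronectin) had 652, 662, 692, 702 and 777 CPM. In contrast, ZEB1 had 13 summed counts, and SNAI1, ZEB2 and PRRX1 were not expressed.

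The 5 libraries lay close together. The common biological coefficient of variation, the spread beyond counting error that edgeR estimates over all genes, was 6.75% over 17855 genes. Spearman correlations between pairs of libraries across genes were 0.990 to 0.992, as a description across genes that are not independent. Chi-square per gene between 2 libraries was 4.55 to 9.39, where counting noise gives about 1, so no pair was the same library deposited again. Over the 9660 genes of 10 CPM or more the median SD was 4.92% of the mean, against 2.44% from counting alone. In 12 of these genes it passed 20%.

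Some of the most variable genes moved together. TNFAIP3, a feedback inhibitor of NF-kB signalling, had 37.5, 24.7, 24.4, 28.9 and 40.9 CPM, and BIRC3, another inducible gene of that pathway, had 25.8, 15.5, 15.7, 18.8 and 21.6 CPM. Replicates 1 and 5 were the 2 highest libraries for both. The same held for the chemokine CXCL2 (11.4, 8.09, 6.95, 7.06 and 10.5 CPM), for EREG (98.5, 79.6, 82.0, 90.7 and 110.2 CPM) and for IL1A, but not for CXCL8 or TLR2, whose 2 highest libraries were replicates 1 and 4. KRT15 ran the other way, with replicate 5 (78.8 CPM) and replicate 1 (107 CPM) lowest, as did VASN (14.3, 19.8, 20.3, 17.2 and 12.5 CPM), a protein that binds TGF-beta. Among the 15 genes of largest SD relative to the mean, replicates 1 and 5 were the 2 highest in 5 and the 2 lowest in 7. Over all 9660 genes this pair was the 2 highest or the 2 lowest in 30.2%, and for each other pair the share was between 15.5% and 26.5%, the latter for replicates 2 and 3. Libraries also differed in how deviations from the gene mean followed GC content: across genes the correlation was −0.172 in replicate 1 and −0.293 in replicate 5, and 0.118, 0.340 and 0.0388 in replicates 2, 3 and 4. The part of GC content in these gene differences was not tested.

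**Figure D5:**
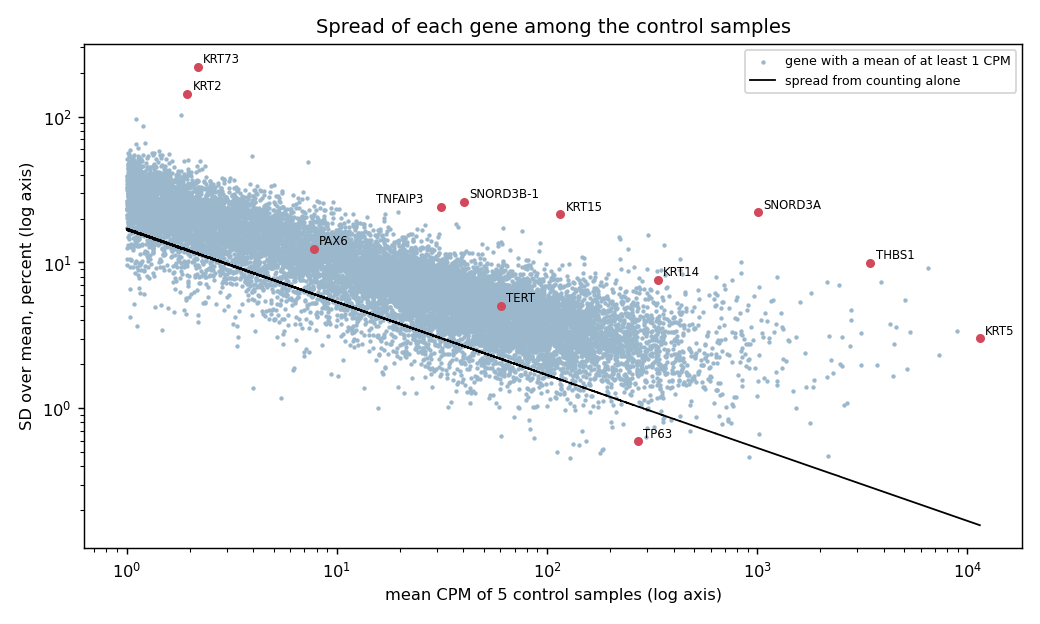
SD as a percentage of the mean (log axis) against mean CPM (log axis) for each gene of 1 CPM or more in the 5 control libraries; the line is the spread that counting alone gives, and red points are named genes. The spread narrows with level, KRT15, TNFAIP3 and the small nucleolar RNAs SNORD3A and SNORD3B-1 lie above genes of like level, and KRT73 and KRT2 lie highest.

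SNORD3A, a small nucleolar RNA of ribosome maturation, had 656, 1191, 1210.0, 1019 and 976 CPM, lowest in replicate 1, and SNORD3B-1, its near-identical copy, had 25.7, 51.5, 47.6, 42.5 and 33.7 CPM. Each of 3 keratins of the type II cluster on chromosome 12 rested on 1 library. KRT73 had 5, 0, 0, 359 and 1 counts, KRT2 had 244, 21, 31, 16 and 29 and KRT82 had 5, 1, 1, 4 and 79, a different library for each gene. KRT73 and KRT2 count among the 17 expressed keratins only through these libraries, and without them their means were 0.0430 and 0.693 CPM. A search over the 16960 genes that reached 1 CPM in any library found 10 in which 1 library was at 1 CPM or more and over 5 times each other library, 6 of them protein-coding. PGC, KLHL33 and SH3GL3, the other 3 protein-coding genes, were named after their values were seen.

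A count of 0 was more common where most of a gene overlaps another. Protein-coding genes that share at least 90% of their exon length with another gene on the same strand had no count in any library in 80.4% of 453 cases, against 11.2% of 16492 genes that share none. Of the 2508 genes that share some but under 50%, 6.30% had no count, a lower share than among genes without overlap. The noncoding genes RN7SK, RMRP and RPPH1, abundant in most cells, were listed at 0 with 98.5% or more of their exon length shared, and were looked up after their values were seen. RN7SL2, looked up in the same way, was also listed at 0 and shares none. Of the genes given levels above, the shared part was largest for RN7SL1 (100%) and TERC (81.0%). Smaller shares included 30.0% for TRPV1, 21.4% for HOXD11, 17.8% for HOXC4 and 16.8% for HOXD10. CDKN2A, CDKN2B, VIM, KRT12, ABCB5, IVL and KERA share none on the same strand. Counting both strands, VIM shares 24.4%, CDKN2A 7.88% and KRT12 5.56%.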

How the data were processed

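The authors deposited whole read counts per Ensembl gene for 20 samples of hTCEpi RNA. Per the submitters' processing notes, STAR 2.7.9a, featureCounts 2.0.3 and Salmon 1.5.2 were among the tools and GRCh38 was the build. Not given in the sources used here were the annotation release and the strand and multi-mapping settings, and reads of overlapping genes, antisense partners and near-identical copies cannot be assigned with certainty. The deposited counts of the 5 control samples were used and the other samples and the authors' comparison tables were not used here. The table had 60871 entries for 60671 identifiers; 168 identifiers on 368 entries with equal counts were kept 1 time each, which removed 0.278% to 0.292% of the counts of a library. Sequencing depth was 32741250 to 40168918 counts per library.

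CPM was computed with TMM factors of edgeR 4.0.16 in R 4.3.3. Exon lengths, positions and overlaps came from GENCODE release 29, which matched 58453 identifiers and 99.9% or more of the counts. The biological coefficient of variation was estimated on genes kept by filterByExpr (minimum count 10) with an intercept alone, and was tested on simulated data. No comparison between groups was made, so no test between groups was run and no p-value is given; chi-square and Dixon's gap describe the libraries. DESeq2 1.42.0 gave alternative size factors and dispersions.

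The members and the gene lists were chosen with earlier results of these data known. Members of the lists and families could be named, with the 20 protein-coding genes of highest per-length level, the 10 noncoding genes of highest CPM and the 15 genes of largest SD over mean at 10 CPM or more. Other genes are said to have been chosen after their values were seen, and some members of the lists are not reported here. The list names HBD2, LOR, MIST1 and RIGI matched no symbol; LORICRIN, DDX58 and BHLHA15 are in the lists under those symbols.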

Additional observations from a re-analysis of the deposited data

Results flagged for a closer look

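In 19 of 210 genes given a level, 1 control library stood apart from the other 4 by a gap above the critical value of Dixon's test for 5 samples. Chance sets apart about 1 in 20 groups. In 7 of these genes 1 library alone had any count, which fixes the gap. In 10 of the 19 genes the mean was under 1 CPM.

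Among expressed genes, 3 were single-library peaks or near to it: KRT73 had 10.7 CPM in replicate 4 and 0 to 0.141 CPM in the others, KRT2 had 6.90 CPM in replicate 1 and 0.477 to 0.887 CPM in the others, and HMOX1, a heme-degrading stress enzyme, had 2.48 CPM in replicate 5 and 0.961 to 1.19 CPM in the others. KRT82 peaked at 2.42 CPM in replicate 5, with 0.0249 to 0.141 CPM elsewhere.

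Smaller gaps lay in genes of higher level. CCND2 was lowest in replicate 1 at 868 CPM (980 to 1014 CPM in the others) and TXN was highest in replicate 1 at 291 CPM (258 to 266 CPM). KLF4 was highest in replicate 1 at 25.1 CPM (20.7 to 21.6 CPM). DSP was lowest in replicate 5 at 1078 CPM (1137 to 1156 CPM), SOX2 was lowest in replicate 5 at 17.6 CPM (24.3 to 26.9 CPM) and KRT10 was lowest in replicate 5 at 13.7 CPM (14.7 to 15.1 CPM).

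The remaining genes were under 1 CPM. AQP3 was low in replicate 1 at 0.509 CPM (0.916 to 1.04 CPM in the others), and KRT12 had 0.113 CPM in replicate 1 (0 to 0.0249 CPM). Counts were found in 1 library alone for AQP5 (replicate 4, 0.0596 CPM), CDKN2A (replicate 2, 0.0610 CPM), CDKN2B (replicate 2, 0.0305 CPM), HOXB13 (replicate 2, 0.0610 CPM), HOXD13 (replicate 3, 0.0997 CPM), OTX2 (replicate 3, 0.0249 CPM) and SIX6 (replicate 2, 0.0305 CPM).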

How the results depend on the processing

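The number of expressed genes, 15391, was 13229 to 18213 over a threshold of 2 or 0.5 CPM, a demand for 1 CPM in every library and 3 other library sizes, and 15372 to 15422 with 1 replicate left out. The coefficient of variation was 6.75%, and 8.14% with no filter other than a count above 0 and 6.28% as the median of DESeq2's gene-wise values; it ranged from 6.51% to 7.14% with 1 replicate left out. With library sizes over protein-coding genes alone, the CPM of the 210 genes given a level was 1.08 to 1.09 times as high; per-length levels moved between 0.419 and 4.75 times with the mean transcript length. Of 65 list counts, 58 stayed within 1.5 times at a threshold of 0.5 CPM and 59 at a per-length level of 1; the goblet and conjunctival count became 7 and 4 of 13, and the vascular count 2 of 10 at 0.5 CPM. Without replicate 1, 4 or 5 the immune count became 0; without replicate 2 or 5 the mucin count rose from 1 to 2, and without replicate 2 or 3 that of keratin-associated proteins from 0 to 1. No paired analysis was possible because only the control group was used and no value comes from a test. Depth limits genes under about 0.0917 CPM, and at 1 to 10 CPM counting alone gives a median SD of 10.4% of the mean, against 17.6% measured.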
